A study of Mus musculus with 6 samples.

Results

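The 10 genes described here encode the parts of the elastic fibre, the extracellular structure that lets the wall of a large artery recoil. They are Eln, Fbn1, Fbn2, Mfap5, Fbln1, Fbln2, Fbln5, Efemp2, Lox and Loxl1, and they were taken from the table of gene levels by symbol, 10 of 18112 genes. In the aorta, smooth muscle cells secrete tropoelastin, the soluble product of Eln, onto a scaffold of microfibrils built from the fibrillins Fbn1 and Fbn2 and from associated glycoproteins such as Mfap5. Fibulins bring tropoelastin, microfibrils and crosslinking enzymes together, and the copper-dependent lysyl oxidases Lox and Loxl1 join the monomers into an insoluble polymer. Loss of Eln, Fbn1, Fbln5, Efemp2 or Lox function is known to weaken arterial or other elastic tissue.

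RNA was measured by RNA-seq in primary mouse aortic VSMCs, smooth muscle cells taken from the medial layer of the thoracic aorta of adult C57BL/6 mice, in 3 Smyd2 fl/fl and 3 Smyd2 SMC-/- samples. In both groups loxP sites flank exon 2 of each Smyd2 allele, and in Smyd2 SMC-/- mice Cre recombinase under the Tagln (SM22α) promoter removes that exon, while the Smyd2 fl/fl littermates carry no Cre. An effect of Cre itself and of the deletion cannot be told apart in this design, and Tagln-driven Cre acts from development onwards and also outside smooth muscle. The labels give cells grown in serum to passage 6, whereas the study's methods give an earlier passage and overnight starvation, so the state of the cells at harvest is uncertain. The labels do not say that replicates came from separate animals, so that p-values measure only the spread between these samples, which may be technical. Levels are in FPKM, a gene's fragments divided by transcript length and library size, which allows levels of different genes to be compared. Each library held about 17350000 to 20000000 fragments, as estimated from the steps between low values.

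Smyd2 (NCBI Gene number 226830) was measured at 7.87, 3.10 and 3.0 FPKM in replicates 1, 2 and 3 of Smyd2 fl/fl VSMCs and at 1.67, 0.40 and 0.80 FPKM in those of Smyd2 SMC-/- VSMCs. The highest Smyd2 SMC-/- library was lower than the lowest Smyd2 fl/fl library, as the labels require. Smyd2 had a log2 change of −1.48 and did not pass without the block (adjusted p = 0.105) but did with it (0.0189), and levels per gene do not show exon 2 itself. Of 10 smooth muscle markers, Acta2 led in each library, with 761, 682 and 683 FPKM in Smyd2 fl/fl VSMCs and 201, 268 and 262 FPKM in Smyd2 SMC-/- VSMCs. Acta2 alone passed of the 6 tested markers, with or without a block. In replicates 2 and 3 alone Acta2 was again lower and Lmod1 was higher (0.83, adjusted p = 0.00335), while Tagln (−0.08), Cnn1 (−0.07), Myl9 (−0.03) and Smtn (0.05) did not pass. Over all 3 replicates Tagln (−0.92), Cnn1 (−0.91) and Myl9 (−1.04) were lower without passing, as replicate 1 differed most, with Myl9 at 93.1 FPKM against 10.4 FPKM. Lmod1 too was lower in replicate 1 (3.28 FPKM against 1.22 FPKM). Myh11, Myocd, Des and Synpo2, which mark mature contractile smooth muscle, lay under 0.5 FPKM in all 6 libraries, so that the label of smooth muscle rests on the other 6 markers. The replicate 1 libraries of both groups stood apart from replicates 2 and 3 along the principal component with the most variance (50.2%), and the next component (33.1%) separated the genotypes. For this reason values are also given with the replicate number as a block and in replicates 2 and 3 alone.

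Among the elastic fibre genes, Mfap5 was lower in Smyd2 SMC-/- VSMCs. Over all 6 libraries without a block, the only gene called higher was Fbln1. Mfap5 fell to 1.99 ± 0.841 FPKM (SD, n = 3) from 26.9 ± 14.5 FPKM (SD, n = 3), a 13.5-fold lower mean, and Fbln1 rose 12.0-fold from a very low level. Fbln1 reached the level needed for testing only through the Smyd2 SMC-/- libraries. With 1 library left out, Mfap5 passed in 2 of 6 fits and Fbln1 in 1 of 6. The group means of Fbn1, Fbln5 and Lox were 2.90-fold, 2.50-fold and 3.32-fold higher in Smyd2 SMC-/-. They passed with the replicate number as a block, where 4.72% of all tested genes were higher. Without the block they did not pass (adjusted p = 0.160, 0.278 and 0.199 in limma). Eln, Fbln2, Efemp2 and Loxl1 did not pass the test with or without the block, and Fbn2 was at the limit of detection. The question put to each gene was whether its level differed between the genotypes by more than the spread between replicates.

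Of the 10 genes, 9 reached a mean of 0.5 FPKM over the 6 libraries and were tested with limma on log2(FPKM + 1), with Benjamini-Hochberg adjustment over 12565 genes. Fbn2 did not reach it, and Fbln1 reached it only through the Smyd2 SMC-/- libraries. At an adjusted p under 0.05, 1 gene (Mfap5) was lower and 1 (Fbln1) was higher, where 1.21% of all tested genes were lower and 1.23% higher. With the replicate block, 1 was lower and 4 were higher (Fbn1, Fbln1, Fbln5 and Lox), where 5.72% of all tested genes were lower and 4.72% higher. Of the 4 genes that were higher, only Fbln5 and Lox also passed with the block when no filter on low values was set. In replicates 2 and 3 alone, 1 was lower and 5 were higher, Loxl1 being the addition, where 17.2% of all tested genes were lower and 11.9% higher. The groups did not overlap in 1 tested gene that was lower (Mfap5) and in 3 that were higher (Fbn1, Fbln1 and Lox), against 15.0% lower and 13.1% higher among all tested genes. Unadjusted p-values are also used for the further lists below, and among all tested genes an unadjusted p under 0.05 was reached by 11.2% that were lower and 9.16% that were higher without a block, and by 17.4% and 14.7% with it. The median log2 fold change of the 9 genes was 0.66, and that of all tested genes was −0.02. In bulk samples, fewer cells of a type and less RNA per cell cannot be told apart, which holds for each gene here.

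**Figure D1:**
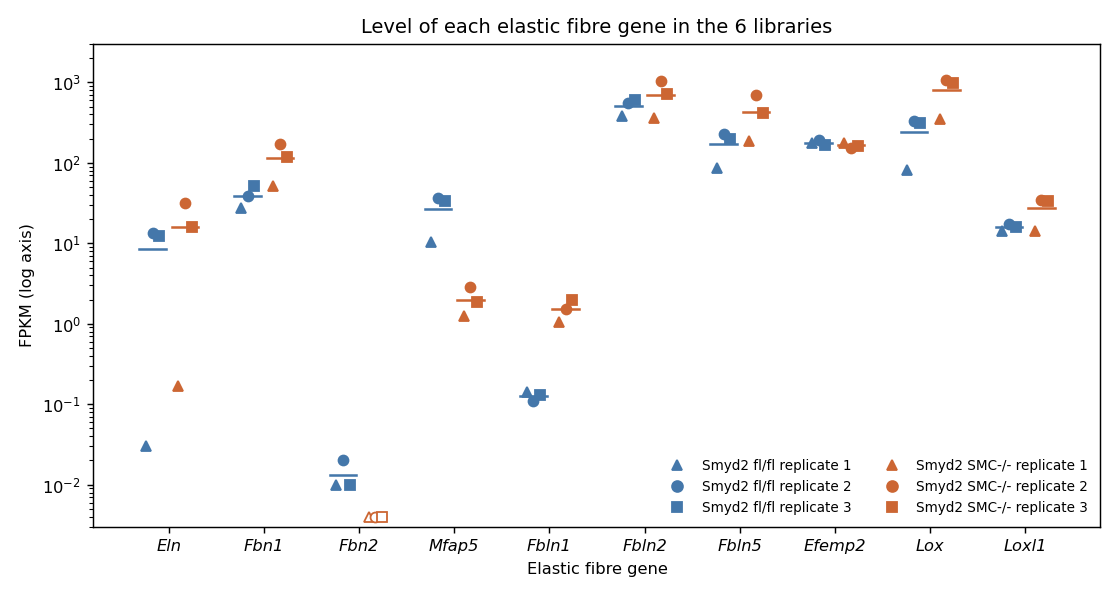
Level of the 10 elastic fibre genes in each library, in FPKM on a log axis, with symbols for the replicates and a line at the mean of each group; open symbols at the bottom mark values listed at 0. Mfap5 is lower in all 3 Smyd2 SMC-/- libraries, Fbn1, Fbln1 and Lox are higher in all 3, and the replicate 1 libraries are the lowest of their group for Eln, Fbn1, Mfap5, Fbln2, Fbln5, Lox and Loxl1.

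To show the sequence in front of genes that rose and of a gene that did not pass the test, windows from 250 bases before to 50 bases after the transcription start were taken from RefSeq (build GRCm38.p6). Of the 10 genes 5 had such windows, 9 windows in all, for Fbn1, Fbln1, Fbln2, Fbln5 and Efemp2, and windows of Eln, Fbn2, Lox, Loxl1 and Mfap5 were not used here. Shown are Fbn1 at chr2:125506389-125506688 on the minus strand, the downstream window of Fbln1 at chr15:85205758-85206057 on the plus strand, both windows of Fbln5 at chr12:101819070-101819369 and chr12:101818435-101818734 on the minus strand, and a window of Efemp2 at chr19:5474440-5474739 on the plus strand. They are written 5′ to 3′ in the direction of the gene. Capitals mark matches on either strand to GGGCGG, the core of a GC box, or to CAGACA, which holds a SMAD-type element.
Fbn1: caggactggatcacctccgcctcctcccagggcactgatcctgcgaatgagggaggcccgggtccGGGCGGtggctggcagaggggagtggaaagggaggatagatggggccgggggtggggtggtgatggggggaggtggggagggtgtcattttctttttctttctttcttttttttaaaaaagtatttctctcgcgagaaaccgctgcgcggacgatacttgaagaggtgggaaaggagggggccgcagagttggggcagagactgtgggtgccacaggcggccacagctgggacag
Fbln1: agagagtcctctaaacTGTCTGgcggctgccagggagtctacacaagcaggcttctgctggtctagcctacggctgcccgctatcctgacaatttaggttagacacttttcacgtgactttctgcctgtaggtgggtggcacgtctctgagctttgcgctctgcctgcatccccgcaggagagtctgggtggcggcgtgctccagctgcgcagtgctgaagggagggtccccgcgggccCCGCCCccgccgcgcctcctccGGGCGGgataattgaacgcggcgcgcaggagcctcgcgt
Fbln5 upstream start: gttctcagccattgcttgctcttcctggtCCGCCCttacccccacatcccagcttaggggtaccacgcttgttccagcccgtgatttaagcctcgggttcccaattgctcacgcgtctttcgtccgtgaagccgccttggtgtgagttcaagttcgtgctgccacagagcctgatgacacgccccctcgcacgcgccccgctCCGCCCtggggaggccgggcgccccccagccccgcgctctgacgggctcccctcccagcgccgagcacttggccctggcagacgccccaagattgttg
Fbln5 downstream start: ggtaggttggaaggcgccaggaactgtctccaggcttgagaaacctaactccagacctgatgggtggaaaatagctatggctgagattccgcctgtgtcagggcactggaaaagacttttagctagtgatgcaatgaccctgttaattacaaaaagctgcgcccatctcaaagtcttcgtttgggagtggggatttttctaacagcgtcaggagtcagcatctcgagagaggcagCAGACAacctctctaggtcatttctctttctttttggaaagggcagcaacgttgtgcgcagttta
Efemp2: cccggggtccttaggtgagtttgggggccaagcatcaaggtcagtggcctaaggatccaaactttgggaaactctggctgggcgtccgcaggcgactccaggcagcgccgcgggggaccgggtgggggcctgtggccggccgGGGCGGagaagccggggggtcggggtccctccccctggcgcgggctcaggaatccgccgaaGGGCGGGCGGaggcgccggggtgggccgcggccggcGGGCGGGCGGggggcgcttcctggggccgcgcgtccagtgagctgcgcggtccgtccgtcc

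GGGCGG stood in the Fbn1 window, 185 bases before the start, and in the upstream window of Fbln5 but not in its downstream window, where CAGACA stood 15 bases before the start. All 3 Efemp2 windows held GGGCGG, at overlapping positions in the window shown, and 76.0% of its bases were G or C against a median of 52.7% over all windows. The Fbln1 window shown held both motifs. In all, 7 of the 9 windows held GGGCGG and 3 held CAGACA, while 35.7% and 21.04% of 32851 RefSeq windows did. Windows of the same gene overlap for Fbln1 and for Efemp2, so that a site can be counted in more than 1 window, as the CAGACA site of Fbln1 is. A CArG box, the binding element of serum response factor, was searched on both strands too, as were the TATA box (TATAAA), the AP-1 element (TGANTCA) and the TEAD element (GGAATG). None of the 9 windows held any of these, while 1.63%, 13.6%, 7.81% and 14.7% of all windows did. No match to a motif overlapped a match to another motif. GGGCGG was thus present both in front of genes called higher with the block and in front of Efemp2.

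Eln (NCBI Gene number 13717), the elastin gene, was measured at 0.03, 13.5 and 12.2 FPKM in replicates 1, 2 and 3 of Smyd2 fl/fl VSMCs and at 0.17, 31.7 and 16.1 FPKM in those of Smyd2 SMC-/- VSMCs. The replicate 1 libraries held almost no Eln RNA in either group, about 2 and 11 fragments, so that the groups overlapped and the spread between replicates exceeded the difference between genotypes. The log2 fold change was 0.58 (95% confidence interval −3.04 to 4.19, adjusted p = 0.882 in limma). With the replicate block the interval was 0.01 to 1.15 and the adjusted p 0.152, and in replicates 2 and 3 alone the log2 fold change was 0.77 (adjusted p = 0.159). Eln was higher in Smyd2 SMC-/- in 3 of 3 same-numbered pairs, but its direction turned without Smyd2 fl/fl replicate 1 (−0.67) and without Smyd2 SMC-/- replicate 2 (−0.38). Over its 18 alternatives limma's adjusted p lay between 0.0663 and 0.992. Eln, which encodes the fibre's main protein by mass in the aorta, ranked between 2472 and 5772 of 18112 genes in the replicate 2 and 3 libraries.

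Among the microfibril genes, Fbn1 (NCBI Gene number 14118), which encodes fibrillin-1, was measured at 27.5, 38.8 and 51.0 FPKM in Smyd2 fl/fl VSMCs and at 51.3, 171 and 117 FPKM in Smyd2 SMC-/- VSMCs. Its groups did not overlap, though Smyd2 SMC-/- replicate 1 lay close to Smyd2 fl/fl replicate 3 (p = 0.1 in a two-sided exact permutation test, which can give no smaller p with 3 against 3). The means were 39.1 ± 11.7 and 113 ± 60.1 FPKM (SD, n = 3 each). The log2 fold change of 1.39 had a standard error of 0.452 and an adjusted p of 0.160 in limma, or a standard error of 0.252 and an adjusted p of 0.0393 with the replicate block. Fbn1 also passed in replicates 2 and 3 alone (1.65, adjusted p = 0.00271 in limma) and without Smyd2 SMC-/- replicate 1 (1.87, adjusted p = 0.0313), while without Smyd2 SMC-/- replicate 2 the value was 1.01. With the block but no filter on low values it did not pass (adjusted p = 0.0819). Over its 18 alternatives the adjusted p lay between 0.00271 and 0.407.

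Fbn2 (NCBI Gene number 14119), the fibrillin used mainly during development, was listed at 0.01, 0.02 and 0.01 FPKM in Smyd2 fl/fl VSMCs and at 0 in all 3 Smyd2 SMC-/- libraries. These levels correspond to about 2, 4 and 2 fragments against 0, so that neither the gene's expression nor a difference between genotypes was measurable at this depth. Of the fibrillins, Fbn1 therefore held nearly all of the RNA in these cells.

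Mfap5 (NCBI Gene number 50530), which encodes a small glycoprotein bound to fibrillin, was measured at 10.3, 36.8 and 33.7 FPKM in replicates 1, 2 and 3 of Smyd2 fl/fl VSMCs and at 1.24, 2.90 and 1.84 FPKM in Smyd2 SMC-/- VSMCs. The highest Smyd2 SMC-/- library lay below the lowest Smyd2 fl/fl library, so that the groups did not overlap (two-sided exact permutation test, p = 0.1). Within pairs of the same number, Smyd2 fl/fl exceeded Smyd2 SMC-/- by 8.33-fold, 12.7-fold and 18.3-fold. On the log2 scale Mfap5 changed by −3.07 (adjusted p = 0.0347 in limma, standard error 0.486), with an adjusted p of 0.0112 under the replicate block. In replicates 2 and 3 alone it was −3.44 (adjusted p = 2.01e-05). With 1 library left out, Mfap5 no longer passed without Smyd2 fl/fl replicate 2 (−2.76, adjusted p = 0.137) or 3 (−2.83, 0.151), nor without Smyd2 SMC-/- replicate 2 (−3.28, 0.110) or 3 (−3.06, 0.158). With no filter on low values it narrowly missed the threshold (adjusted p = 0.0573 without a block). Its adjusted p over 18 alternatives lay between 2.01e-05 and 0.158, and its direction was the same in all 18.

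Since Mfap5 and Fbn1 encode parts of the same microfibril, their RNA levels were set against each other within each library. The ratio of Mfap5 to Fbn1 FPKM was 0.375, 0.949 and 0.660 in Smyd2 fl/fl VSMCs and 0.0242, 0.0169 and 0.0157 in Smyd2 SMC-/-. In Smyd2 fl/fl the genes were thus within the same order of magnitude, and in Smyd2 SMC-/- Mfap5 lay far under Fbn1 in every library. By group means, Mfap5 dropped from order 6 among the 10 genes in Smyd2 fl/fl to order 8 in Smyd2 SMC-/-, and its range overlapped those of its neighbours. In the replicate 1 pair its place was the same in both genotypes. There Mfap5 lay under Loxl1 in Smyd2 fl/fl (10.3 against 14.2 FPKM). In Smyd2 SMC-/- it lay under Loxl1 as well but above Fbln1 and Eln (1.24 against 1.06 and 0.17 FPKM).

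Fibulins came next. Fbln1 (NCBI Gene number 14114), whose product sits within elastic fibres and basement membranes, was measured at 0.14, 0.11 and 0.13 FPKM in Smyd2 fl/fl VSMCs and at 1.06, 1.54 and 1.96 FPKM in Smyd2 SMC-/- VSMCs. Each Smyd2 SMC-/- library exceeded each Smyd2 fl/fl library (p = 0.1, two-sided exact permutation test), on about 8 to 9 fragments in each Smyd2 fl/fl library against 66, 106 and 137. On the log2 scale the change was 1.15 (adjusted p = 0.0414 in limma and 0.0292 with the replicate block, standard error 0.194 without it), a scale that understates the change of genes as low as this. Fbln1 no longer passed without Smyd2 fl/fl replicate 1 (1.15, adjusted p = 0.0673), 2 (1.14, 0.172) or 3 (1.15, 0.173), nor without Smyd2 SMC-/- replicate 2 (1.13, 0.158) or 3 (1.02, 0.181). It also missed the threshold once chromosome medians were removed (1.30, adjusted p = 0.0701), a setting chosen after seeing the data, and with the block but no filter (adjusted p = 0.0564). The adjusted p over 18 alternatives lay between 0.000913 and 0.181. Even in Smyd2 SMC-/-, Fbln1 ranked only between 10596 and 11480 of 18112 genes.

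Fbln5 (NCBI Gene number 23876), which binds tropoelastin and Loxl1 and is needed for elastic fibre assembly, was measured at 87.4, 231 and 197 FPKM in Smyd2 fl/fl VSMCs and at 184, 689 and 419 FPKM in Smyd2 SMC-/- VSMCs. The groups overlapped only because Smyd2 SMC-/- replicate 1 lay under Smyd2 fl/fl replicates 2 and 3 (two-sided exact permutation test, p = 0.3). Within pairs of the same number Smyd2 SMC-/- was 2.11-fold, 2.98-fold and 2.12-fold higher. The log2 fold change of 1.24 had a standard error of 0.557 and an adjusted p of 0.278 in limma, and with the replicate block a standard error of 0.139 and an adjusted p of 0.0182. In replicates 2 and 3 alone it was 1.33 (adjusted p = 0.00895). The adjusted p over 18 alternatives lay between 0.00895 and 0.551. Single libraries moved the value to 0.80 (without Smyd2 SMC-/- replicate 2), 0.81 (without Smyd2 fl/fl replicate 1) or 1.75 (without Smyd2 SMC-/- replicate 1).

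Fbln2 (NCBI Gene number 14115), a fibulin that binds fibrillin and is abundant in vessel walls, had 381, 550.3 and 602 FPKM in Smyd2 fl/fl VSMCs and 365, 1032 and 709 FPKM in Smyd2 SMC-/- VSMCs. The lowest and the highest of these 6 values both belonged to Smyd2 SMC-/- libraries. Its log2 fold change was 0.36 (95% confidence interval −0.57 to 1.29, adjusted p = 0.674 in limma). The replicate block narrowed the interval to −0.16 to 0.88 without a call (adjusted p = 0.288), and in replicates 2 and 3 alone the log2 fold change was 0.57 (adjusted p = 0.0571). With 1 library left out the value ran from 0.02 (without Smyd2 SMC-/- replicate 2) to 0.77 (without Smyd2 SMC-/- replicate 1). Fbln2 was among the most abundant RNAs in each library, ranking between 98 and 145 in Smyd2 fl/fl and between 33 and 123 in Smyd2 SMC-/-.

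Efemp2 (NCBI Gene number 58859), which encodes fibulin-4 and helps to activate lysyl oxidase at the fibre, was the steadiest of the abundant genes across libraries. It had 175, 194 and 165 FPKM in Smyd2 fl/fl VSMCs and 178, 154 and 161 FPKM in Smyd2 SMC-/- VSMCs, and the groups overlapped. The log2 fold change was −0.11 (95% confidence interval −0.41 to 0.19, adjusted p = 0.685 in limma). Replicate 1 differed little from replicates 2 and 3 for Efemp2, where it held 97.4% of their mean in Smyd2 fl/fl VSMCs and 113% in Smyd2 SMC-/-. The small negative value ranged from −0.17 to −0.05 with 1 library left out, and turned to 0.011 after rescaling to TPM and to 0.37 after removal of chromosome medians. The ratio of Fbln5 to Efemp2 FPKM was 0.50, 1.19 and 1.197 in Smyd2 fl/fl VSMCs and 1.03, 4.47 and 2.60 in Smyd2 SMC-/-.

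Of the crosslinking enzymes, Lox (NCBI Gene number 16948), the lysyl oxidase that acts on both elastin and collagen, was measured at 82.6, 327 and 315 FPKM in replicates 1, 2 and 3 of Smyd2 fl/fl VSMCs and at 347, 1075 and 984 FPKM in Smyd2 SMC-/- VSMCs. The lowest Smyd2 SMC-/- value, that of replicate 1, lay just above the highest Smyd2 fl/fl value (two-sided exact permutation test, p = 0.1). Within pairs of the same number Lox was 4.20-fold, 3.29-fold and 3.12-fold higher in Smyd2 SMC-/-, so that replicate 1 showed the difference as well. The log2 fold change of 1.80 had a standard error of 0.659 and an adjusted p of 0.199 in limma, and with the replicate block a standard error of 0.124 and an adjusted p of 0.00662. In replicates 2 and 3 alone it was 1.68 (adjusted p = 0.000124), and over 18 alternatives the adjusted p lay between 0.000124 and 0.479. Leaving out 1 library moved the value to between 1.15 (without Smyd2 fl/fl replicate 1) and 2.32 (without Smyd2 SMC-/- replicate 1). Lox ranked 889, 208 and 195 among all genes in Smyd2 fl/fl VSMCs and 140, 29 and 26 in Smyd2 SMC-/-.

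Loxl1 (NCBI Gene number 16949), a lysyl oxidase tied to elastin and recruited by Fbln5, was measured at 14.2, 17.6 and 15.8 FPKM in Smyd2 fl/fl VSMCs and at 14.2, 34.8 and 33.1 FPKM in Smyd2 SMC-/- VSMCs. The replicate 1 libraries had the same level, and the other Smyd2 SMC-/- libraries lay above every Smyd2 fl/fl library. On the log2 scale Loxl1 changed by 0.66 (adjusted p = 0.332 in limma and 0.124 under the replicate block). In replicates 2 and 3 alone it was 0.98 (adjusted p = 0.000618), and without Smyd2 SMC-/- replicate 1 it was 1.06 (adjusted p = 0.0199), within a range of 0.000618 to 0.674 over 18 alternatives. Without Smyd2 SMC-/- replicate 2 it was 0.44. The call for Loxl1 therefore depended on Smyd2 SMC-/- replicate 1. Lox exceeded Loxl1 in every library, by 5.81-fold, 18.6-fold and 20.01-fold in Smyd2 fl/fl and by 24.4-fold, 30.9-fold and 29.7-fold in Smyd2 SMC-/-.

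**Figure D2:**
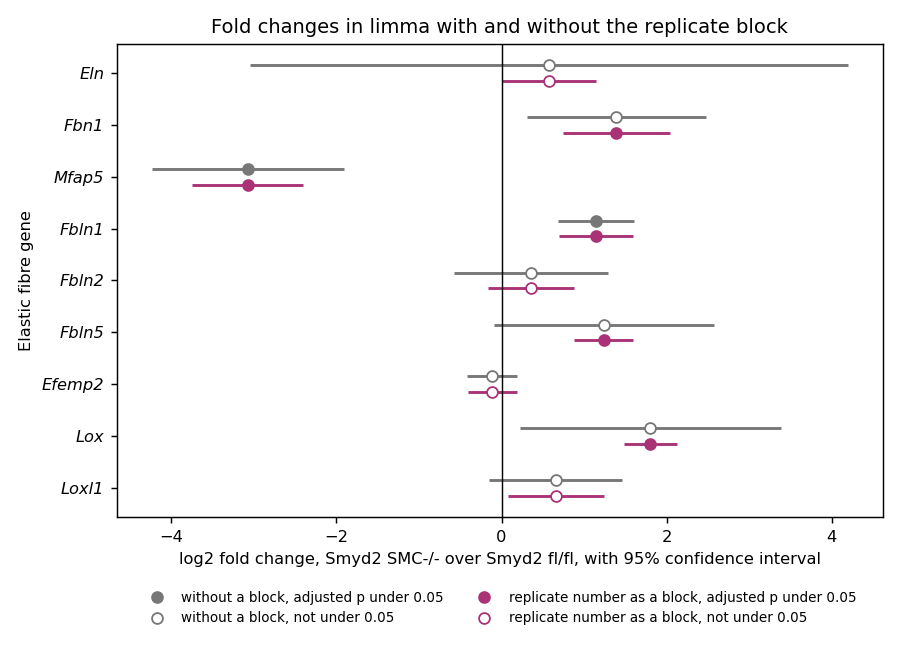
Log2 fold change of the 9 tested elastic fibre genes, Smyd2 SMC-/- over Smyd2 fl/fl, from limma on log2(FPKM + 1) over 3 libraries per group, with 95% confidence intervals, without a block (grey) and blocked by replicate number (purple). Filled points have an adjusted p under 0.05: Mfap5 and Fbln1 without a block, and also Fbn1, Fbln5 and Lox with it.

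Replicate 1 had lower levels than replicates 2 and 3 for most of these genes in both genotypes. In Smyd2 fl/fl, replicate 1 held 0.234% of the mean of replicates 2 and 3 for Eln, 25.7% for Lox, 29.3% for Mfap5 and 40.8% for Fbln5. In Smyd2 SMC-/- it held 0.712% for Eln, 33.7% for Lox, 52.3% for Mfap5 and 33.3% for Fbln5. The differences between same-numbered libraries on the log2 scale were 2.06, 1.71 and 1.64 for Lox, 1.07, 1.57 and 1.08 for Fbln5, and −2.34, −3.28 and −3.61 for Mfap5. Loxl1 (0.00, 0.94 and 1.02) and Fbln2 (−0.06, 0.91 and 0.23) differed from these in that their replicate 1 pair showed little or no difference.

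**Figure D3:**
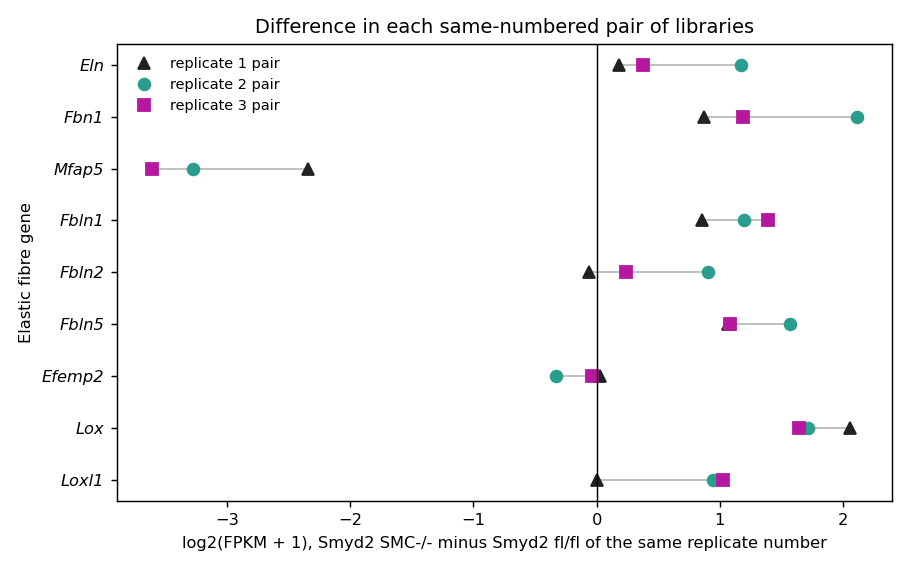
Difference in log2(FPKM + 1) between the Smyd2 SMC-/- and the Smyd2 fl/fl library of the same replicate number, for the 9 tested elastic fibre genes, with a symbol for each of the 3 pairs and a line over their range. All 3 pairs are positive for Eln, Fbn1, Fbln1, Fbln5 and Lox and negative for Mfap5, while the replicate 1 pair is at 0.00 for Loxl1.

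By level, the genes in Smyd2 fl/fl ran from Fbln2 (511 FPKM) through Lox (242), Efemp2 (178) and Fbln5 (172) to Fbn1 (39.1), Mfap5 (26.9), Loxl1 (15.9), Eln (8.57), Fbln1 (0.127) and Fbn2. The ranges over libraries of Lox, Efemp2 and Fbln5 overlapped with their neighbours in this order, as did those of Fbn1, Mfap5 and Loxl1, and those of Eln and Fbln1. In Smyd2 SMC-/- the order of means was Lox (802 FPKM), Fbln2 (702), Fbln5 (431), Efemp2 (164), Fbn1 (113), Loxl1 (27.4), Eln (16.0), Mfap5 (1.99), Fbln1 (1.52) and Fbn2. There Lox overlapped with Fbln2 and Fbln2 with Fbln5, while Fbln5 lay above Efemp2 in each library. Further down, Efemp2 overlapped with Fbn1, Loxl1 with Eln, Eln with Mfap5, and Mfap5 with Fbln1. The 10 genes summed to 778, 1409.8 and 1393 FPKM in Smyd2 fl/fl VSMCs and 1142, 3192 and 2444 FPKM in Smyd2 SMC-/- VSMCs. The means of this sum were 1193 ± 360.1 and 2259 ± 1038 FPKM (SD, n = 3 each). The groups overlapped, though within each same-numbered pair the sum was higher in Smyd2 SMC-/-. Fbln2 led the sum in all Smyd2 fl/fl libraries and in Smyd2 SMC-/- replicate 1, and Lox led it in Smyd2 SMC-/- replicates 2 and 3.

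Other genes of the pathway were read in the same fits. Of 20 further genes of elastic fibres and microfibrils 14 were tested. In limma without a block 0 passed in either direction at an adjusted p under 0.05. At an unadjusted p under 0.05 there were 1 lower and 2 higher, against 11.2% and 9.16% of all tested genes. With the replicate block 0 were lower and 3 were higher (Loxl2, Ltbp1 and Ltbp4), against 5.72% and 4.72% of all tested genes. The list's median log2 fold change was 0.17. Without the replicate 1 libraries 3 were lower (Efemp1, Loxl4 and Adamts6) and 2 higher (Ltbp1 and Ltbp4), close to the 17.2% and 11.9% of all tested genes in that fit, and the median was −0.09. Ltbp1, which binds latent TGF-β to fibrillin, had 103, 120.1 and 125 FPKM in Smyd2 fl/fl VSMCs and 143, 268 and 237 FPKM in Smyd2 SMC-/- VSMCs, with no overlap (log2 fold change 0.84, adjusted p = 0.128 in limma, or 0.0404 with the block). Ltbp4, which works with Fbln5 in elastic fibre assembly, had 4.85, 30.8 and 32.9 FPKM against 11.0, 55.0 and 51.8 FPKM (0.83, adjusted p = 0.659 in limma, or 0.0253 with the block). Loxl2, another amine oxidase of the Lox family, had 8.06, 33.2 and 38.7 FPKM against 20.8, 133 and 65.2 FPKM (1.32, adjusted p = 0.419 in limma, or 0.0393 with the block), and in replicates 2 and 3 alone it did not pass (adjusted p = 0.0675). Efemp1, which encodes fibulin-3, was the most abundant gene of this list at 526 ± 356 and 408 ± 228 FPKM (SD, n = 3 each), with a log2 fold change of −0.18 that passed neither with nor without the block, though Efemp1 was lower in replicates 2 and 3 alone (−0.44, adjusted p = 0.0316).

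All 12 genes for processing, copper supply, chaperones and receptors of elastin were tested, and in limma without a block 0 passed in either direction. At an unadjusted p under 0.05 there were 2 lower and 3 higher, against 11.2% and 9.16% of all tested genes. With the replicate block 1 was lower (Itgb3) and 2 were higher (Bmp1 and Glb1), against 5.72% and 4.72% of all tested genes. The median log2 fold change was 0.27. The fit of replicates 2 and 3 alone had 3 lower (Furin and Itgb5 besides Itgb3) and 3 higher (Itgav besides Bmp1 and Glb1), against 17.2% and 11.9% of all tested genes. Bmp1, the protease that cleaves the Lox precursor, had 96.3, 76.2 and 82.6 FPKM in Smyd2 fl/fl VSMCs and 132, 108 and 108 FPKM in Smyd2 SMC-/- VSMCs (log2 fold change 0.44, adjusted p = 0.168 in limma, or 0.0485 with the block). Glb1, the gene that also encodes the elastin-binding protein, had means of 30.6 ± 5.0 and 43.0 ± 4.98 FPKM (SD, n = 3 each) and a log2 fold change of 0.49 (adjusted p = 0.177 in limma, or 0.0418 with the block). Itgb3, the β3 subunit of an integrin that binds fibrillin-1, had 4.36 ± 0.382 and 2.31 ± 0.372 FPKM (SD, n = 3 each) and a log2 fold change of −0.70 (adjusted p = 0.0793 in limma, or 0.0456 with the block). Ctsa, part of the elastin receptor complex and the most abundant of these genes, had 162 ± 2.93 and 207 ± 10.6 FPKM (SD, n = 3 each) and did not pass (adjusted p = 0.152 in limma, or 0.0820 with the block).

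Of 10 elastin-degrading proteases and inhibitors 7 were tested, and in limma without a block 0 were lower and 0 higher, with 0 in either direction at an unadjusted p under 0.05. With the replicate block 0 were lower and 1 was higher, the metalloproteinase inhibitor Timp1, against 5.72% and 4.72% of all tested genes. The median log2 fold change was 0.42. Replicates 2 and 3 alone had 1 lower (Mmp2) and 4 higher (Ctsk, Timp1, Timp2 and Timp3), where again 17.2% and 11.9% of all tested genes were called. Timp1 had 104, 168 and 131 FPKM in Smyd2 fl/fl VSMCs and 141, 256 and 216 FPKM in Smyd2 SMC-/- VSMCs (log2 fold change 0.58, adjusted p = 0.293 in limma, or 0.0393 with the block). By group means the inhibitors Timp2 and Timp3 were the most abundant of this list, though in Smyd2 SMC-/- replicate 1 Timp3 lay under Cst3 (368 FPKM). Timp2 had 479, 882 and 843 FPKM against 580, 1590 and 1378 FPKM, and Timp3 had 380.04, 522 and 543 FPKM against 253, 1117 and 912 FPKM, and neither passed with or without the block. Both passed in replicates 2 and 3 alone, Timp2 at 0.78 (adjusted p = 0.005997) and Timp3 at 0.92 (adjusted p = 0.00343). The macrophage elastase Mmp12 and the gelatinase Mmp9, named after their values were seen, were at most 0.27 FPKM in each library.

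**Figure D4:**
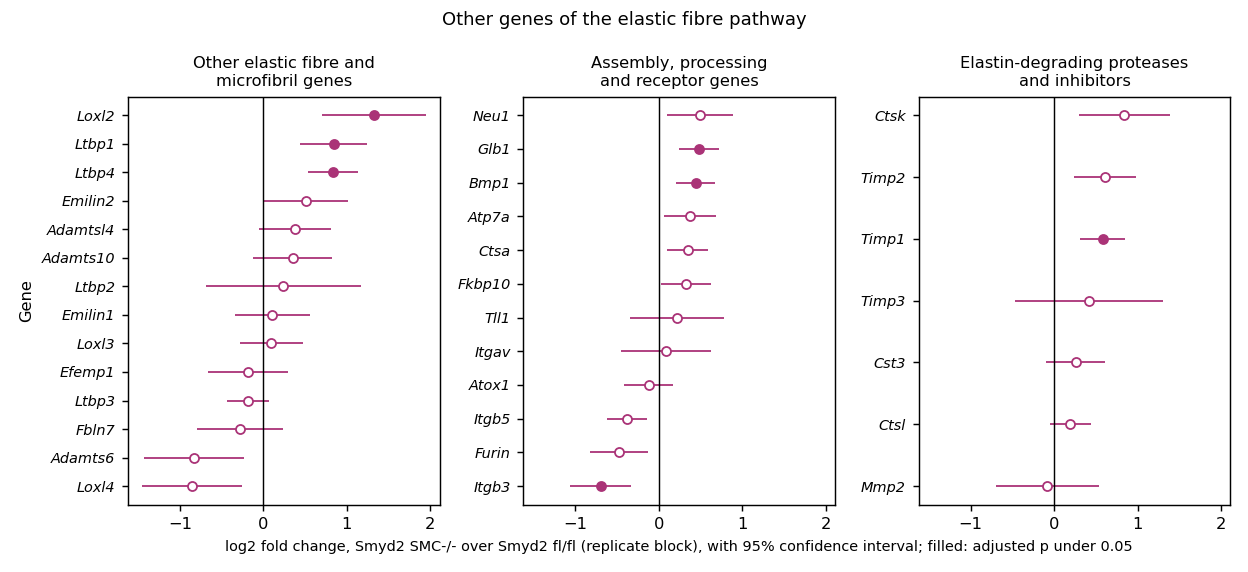
Log2 fold change of the tested genes of 3 further lists, Smyd2 SMC-/- over Smyd2 fl/fl, from limma with the replicate block over 3 libraries per group, with 95% confidence intervals. Filled points have an adjusted p under 0.05 and are Loxl2, Ltbp1 and Ltbp4 among fibre and microfibril genes, Bmp1, Glb1 and Itgb3 among assembly and receptor genes, and Timp1 among proteases and inhibitors.

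The genes with the pattern most like that of Eln were found by the root mean square difference between log2(FPKM + 1) profiles over the 6 libraries, each centred on its own mean. They were Bst2 (0.276), Oas2 (0.317), Dcn (0.344), Phf11d (0.350) and Apol9b (0.352). Bst2 had 11.4, 181 and 146 FPKM in Smyd2 fl/fl VSMCs and 8.81, 240.4 and 177 FPKM in Smyd2 SMC-/- VSMCs. Like Eln, it was far lower in the replicate 1 libraries than in the others, which is the main feature that this measure picks up. Among the elastic fibre genes themselves Lox (1.28) and Fbln5 (1.29) were nearest to Eln, and Mfap5 (2.32) was farthest.

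Markers of other cells were read in the same libraries, since the wall of the aorta also holds fibroblasts, endothelium and macrophages. By the study's methods, endothelium and adventitia were taken off before the media was digested, and each batch of cells was checked by staining for smooth muscle actin. Of 10 fibroblast and adventitial markers 9 were tested, and 2 were lower (Dpt and Serpinf1) and 0 higher in limma, or 4 lower (with Cd34 and Ly6a) and 0 higher with the replicate block. At an unadjusted p under 0.05, 4 were lower and 0 higher without the block, and 6 were lower and 2 higher with it. Replicates 2 and 3 alone had 6 lower and 1 higher (Lum) after adjustment, against 17.2% and 11.9% of all tested genes in that fit. Over all 6 libraries those adjusted shares were 1.21% and 1.23% without the block, and 5.72% and 4.72% with it. The 10 markers summed to 372, 1022 and 879 FPKM in Smyd2 fl/fl VSMCs and 93.5, 580.2 and 529 FPKM in Smyd2 SMC-/- VSMCs, and the median log2 fold change was −1.32. Dpt fell most, from 144, 90.3 and 65.5 FPKM to 3.31, 1.15 and 0.63 FPKM (log2 fold change −5.28, adjusted p = 0.00417 in limma). Dcn, the most abundant of them in Smyd2 SMC-/- replicates 2 and 3, had 13.9, 311 and 257 FPKM against 25.6, 383 and 350.5 FPKM and did not pass. Lum went the other way, from 0, 1.31 and 1.17 FPKM to 0.26, 14.5 and 10.4 FPKM, and passed in replicates 2 and 3 alone (2.57, adjusted p = 7.40e-05). Of the 9 tested markers 6 thus had negative values, as had Mfap5, a gene that fibroblasts also express, and 3 had positive values. The list's part in the levels of Mfap5 and of the other elastic fibre genes was not tested.

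Endothelial and macrophage markers were low, and only 1 endothelial marker (Kdr) and 4 of the macrophage and leukocyte list were tested. The 9 endothelial markers read summed to between 1.82 and 5.64 FPKM in the 6 libraries, with Cdh5 and Tie1 at 0.01 FPKM or less and Pecam1 or Kdr the most abundant, and Cldn5 was not analysed here. The 8 macrophage and leukocyte markers summed to between 18.4 and 42.7 FPKM, most of it Cd14, with Ptprc and Adgre1 at 0.02 FPKM or less. In limma 0 genes of either list were lower or higher at an adjusted p under 0.05 with or without the block. Without it Kdr and Csf1r were higher at an unadjusted p under 0.05, as were 9.16% of all tested genes. Pecam1, under the filter and so not tested, went from 0.56, 0.88 and 0.92 FPKM to 0.12, 0.18 and 0 FPKM. Egfl7 (0.82 and 0.55 FPKM to 0.23 and 0.05 FPKM) and Vwf (0.13 and 0.11 FPKM to 0.04 and 0.01 FPKM) were lower in replicates 2 and 3, and in replicate 1 Egfl7 was higher (0.29 to 0.69 FPKM) and Vwf lower (0.22 to 0.16 FPKM). Kdr (adjusted p = 0.00260) and Csf1r (0.0192) were higher and Lyz2 (0.00294) was lower in replicates 2 and 3 alone. In that fit 11.9% of all tested genes were higher and 17.2% lower. Set against the 778 to 3192 FPKM of the elastic fibre genes, both lists held little RNA.

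**Figure D5:**
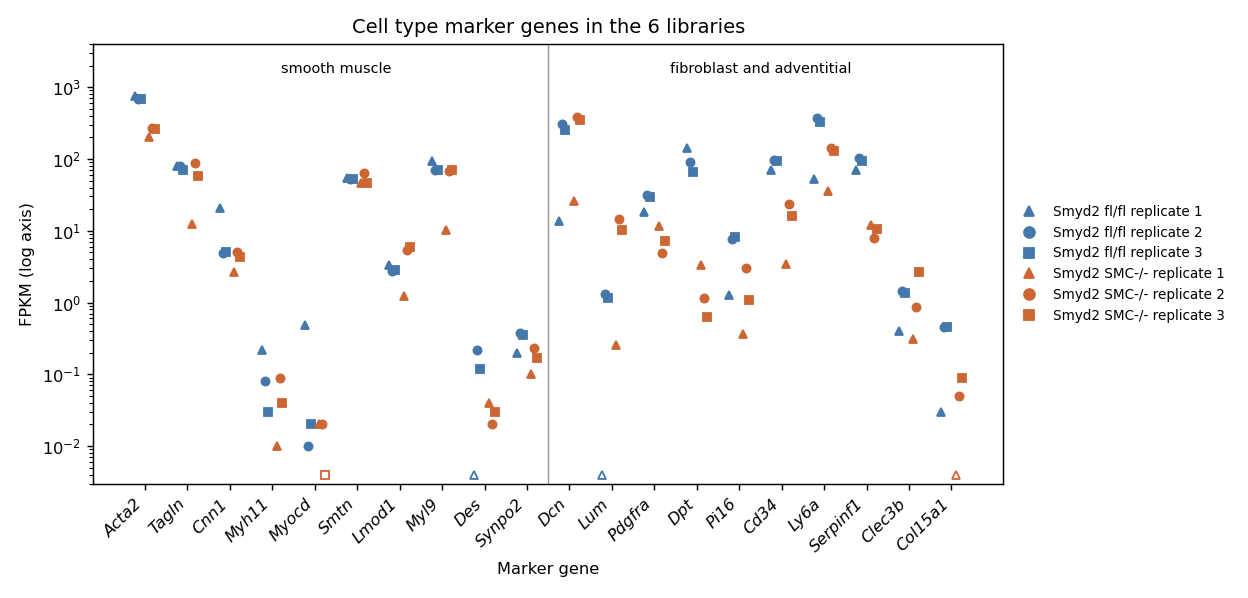
Level of 10 smooth muscle markers and 10 fibroblast and adventitial markers in each library, in FPKM on a log axis, with symbols for the replicates; open symbols at the bottom mark values listed at 0. Acta2, Myl9 (narrowly), Dpt, Cd34, Pdgfra and Serpinf1 are lower in all 3 Smyd2 SMC-/- libraries, and Myh11, Myocd, Des and Synpo2 are under 0.5 FPKM throughout.

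The elastic fibre genes are spread over the genome, with Fbln2 and Mfap5 both on chromosome 6 and Fbn2 and Lox both on chromosome 18. Mfap5 and Fbln2 share a chromosome and had fold changes of opposite sign. As the genotypes differed in the median level of some chromosomes, the median log2 fold change of each was set beside its members. It was −0.42 over 424 tested genes for chromosome 19, which carries Efemp2, and 0.28 over 739 tested genes for chromosome 5, which carries Eln. For the other 8 genes it lay between −0.15 (chromosome 6) and 0.12 (chromosome 9, which carries Loxl1). Rescaling to TPM shifted the median over all tested genes by 0.11 on the log2 scale, against which small values such as that of Efemp2 have to be read, and left the direction of the other 8 tested genes the same.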

How the data were processed

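RNA-seq data of 3 Smyd2 SMC-/- and 3 Smyd2 fl/fl samples, grouped by their labels, were analysed. The authors used SOAPnuke to filter reads from a BGISEQ-500 instrument, HISAT and Bowtie2 to map them, and RSEM to estimate expression. The FPKM values they deposited have 2 decimals. Versions and genome build are not given in the sources used here. FPKM carries no read counts, so each library's fragments were estimated from the steps between its low values, of which 72.4% to 75.5% lay no more than 0.15 from a whole number of fragments, against 30% by chance. By these estimates 1 fragment on 2000 bases equals 0.0260 to 0.0300 FPKM, which covers counting error only.

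Values were analysed as log2(FPKM + 1). The 12565 of 18112 genes (1125 had no symbol) whose mean over the 6 libraries reached 0.5 FPKM were fitted in R 4.3.3 by limma 3.58.1 (lmFit and eBayes, the latter with trend = TRUE and robust = TRUE), with p-values adjusted by Benjamini-Hochberg. The fits were tested on simulated data. Single genes were also compared by two-sided exact permutation tests of mean FPKM, whose smallest p for 3 against 3 is 0.1. Python 3.11.15 with numpy 2.4.6, pandas 2.3.3, scipy 1.17.1 and matplotlib 3.10.9 was used for the rest. Chromosomes and transcript lengths were taken from the GENCODE M21 annotation.

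Replicate numbers come from the labels. Libraries of the same number deviated alike from the mean of their group over all tested genes. The correlation was 0.61, 0.46 and 0.53 for replicates 1, 2 and 3, and the numbers were taken to pair the samples. Replicates 2 and 3 of different number were correlated by 0.46 and 0.44, so these values do not settle how they match between genotypes. Hence the pairing mainly separates replicate 1 from the others. Replicate 1, with 1 library in each group, cannot be tested alone.

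Named are all 10 elastic fibre genes, Smyd2, and the genes of 3 further lists with an adjusted p under 0.05 with or without the block or in replicates 2 and 3 alone (at most 6 by fold change) or with the 2 highest mean levels, the 5 genes of at least 1 FPKM most like Eln, and marker genes. The elastic fibre genes and the lists were chosen with earlier results of these data known. Alternatives were another pseudocount, no filter, blocks, left-out libraries, TPM, quantile normalization, plain eBayes and stricter cutoffs. Experiments of the study other than this RNA-seq were not analysed here.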

Additional observations from a re-analysis of the deposited data

How the results depend on the processing

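Of 162 recomputed log2 fold changes of the 9 tested genes, 125 kept their direction and their side of the threshold, 20 newly passed it, 12 no longer passed it and 5 changed sign. The changes of sign were those of Eln without Smyd2 fl/fl replicate 1 (−0.67) and without Smyd2 SMC-/- replicate 2 (−0.38, against 2.02 without Smyd2 SMC-/- replicate 1), and of Efemp2 with TPM (0.011 with or without the replicate block) and with chromosome medians removed (0.37), and their cause was not tested. The removal of chromosome medians, and the replicate block with another pseudocount, with TPM or with no filter, were chosen after seeing the data.

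Over all genes, 152 were lower and 154 higher. The replicate block gave 719 and 593, or 756 and 622 with a pseudocount of 0.1, 475 and 1014 with TPM, but only 120 and 137 with no filter. A block for replicate 1 against the others gave 1398 and 1152, and replicates 2 and 3 alone gave 2156 and 1494. TPM without a block gave 99 and 247, removal of chromosome medians 73 and 118, and a fold change above 2 with an adjusted p under 0.01 gave 26 and 27. Leaving out Smyd2 fl/fl replicate 1 gave 156 lower and 121 higher, and leaving out Smyd2 SMC-/- replicate 1 gave 313 and 373. Leaving out a replicate 2 or 3 library gave 16 to 28 lower and 16 to 27 higher.

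Of the elastic fibre genes, 1 was lower and 1 higher without a block. The number lower was 0 with no filter and at the stricter cutoffs, and 0 to 1 with each library left out, always with 1 lower at an unadjusted p under 0.05 in limma (6.92% to 15.2% of all tested genes). The number higher was 4 with the replicate block, where 593 of all genes were higher. With the block it was 4 with a pseudocount of 0.1 (622 of all genes) and 4 with TPM (1014). With the block and no filter it was 2 (137), where Fbn1 and Fbln1 were lost. The block for replicate 1 gave 4 (1152), and replicates 2 and 3 alone gave 5 (1494). With chromosome medians removed it was 0 (118), and at the stricter cutoffs 0 (27). In both, 3 were higher at an unadjusted p under 0.05 in limma, against 8.52% and 9.16% of all tested genes. With each library left out the number higher was 0 to 3. With 5 libraries the group of 2 shares its spread with the group of 3. Replicates 2 and 3 alone gave more calls over all genes than the full set of libraries. Why the number of calls differed between these fits was not tested. Low levels, as of Fbln1 and Fbn2, rest on few fragments. FPKM without counts gives no count test here.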
